A study of Danio rerio with 12 samples.

Results

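The cytosolic ribosomal protein genes are the genes for the proteins of the ribosome that works outside mitochondria. They were chosen by name: every gene of the deposited count table whose symbol was rpl or rps followed by a digit, or rplp0, rplp1, rplp2 or rpsa, with kinase names and mitochondrial ribosomal proteins left out. This gave 83 of 32520 genes, 37 named for the small subunit and 46 for the large subunit. No gene of the table carried the plain symbol rpsa, and 2 close spellings, RPSA2 and rplp2l, stayed outside. Of the 83 members, 78 carry names of structural ribosomal proteins, and the other 5 (rps19bp1, RPL7L1, RPL22L1, rps27l and rps11l) are named as partners or relatives of one.

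The libraries came from adult zebrafish, and all groups carried the same transgenes, sox17:CreERT2 and the reporter mpeg1:loxP-DsRedx-loxP-GFP. In these fish mpeg1, a macrophage gene, drives DsRedx until a tamoxifen-dependent Cre recombinase under sox17, an endoderm gene, removes it and GFP takes its place, so GFP marks cells with a sox17 history and DsRedx marks cells in which no switch took place. The 4 groups, with 3 libraries each, were the GFP cells and the DsRedx cells of the gill and of the intestine. The series names the GFP cells metaphocytes and the DsRedx cells macrophages. Every library held the amplified RNA of 30 to 50 sorted cells. The labels do not say whether the 3 samples of a group came from separate fish, so p-values measure the spread between these samples, which may be technical. In pools of sorted cells, a lower level can be fewer expressing cells or less RNA per cell, and these cannot be told apart.

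A ribosome has a small subunit, which reads the messenger RNA, and a large subunit, which joins amino acids. Each subunit is built on ribosomal RNA and carries 1 copy of most of its proteins, so vertebrate cells make these proteins in matched amounts, and their messages share a start motif through which their translation is turned up or down together. The acidic P stalk on the large subunit recruits elongation factors. In macrophages and epithelia alike the messages of these genes are among the most abundant of the cell, and their sum is often read as a measure of the effort spent on making ribosomes.

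Total counts ran from 5895669 to 12365233 a library, and 9506 to 13278 genes had at least 1 count. CPM are counts scaled to a common library total, for all marker genes and their sums the raw total. The summed CPM of 20 macrophage and leukocyte marker genes lay between 18327 and 35160 in the 6 DsRedx libraries. It lay between 12154 and 18283 in gill GFP, and between 4333 and 5201 in intestine GFP. That of 10 epithelial markers was 429 to 1705 in the DsRedx libraries and 6446 to 14006 in the GFP libraries. Of that list krt8 went the other way in gill, with group means on raw totals of 1042 CPM in DsRedx and 660 in GFP. In intestine it had 642 CPM in DsRedx and 1826 in GFP, and it was the highest of the list in both DsRedx groups. The defining leukocyte genes ptprc (386 and 435 CPM, gill and intestine DsRedx means on raw totals) and SPI1 (428 and 268) were at 2.08 to 3.23 CPM in the GFP groups, while cd74a stayed at 11944 CPM in gill GFP. Of the same list CORO1A had a higher mean in GFP than in DsRedx, 379 against 120 CPM in gill and 508 against 218 in intestine, and LCP1 was at 1506 CPM in gill DsRedx and 1976 in gill GFP. Of the 20 leukocyte genes, 19 had a count in each group other than gill GFP and 16 in gill GFP, where csf1ra and 2 genes named MFAP4 were at 0 beside the 1 gene named MPEG1 that was at 0 in every group. The 3 erythrocyte genes were at 0 in every library, and 7 enterocyte and goblet cell genes summed to 2318 to 3060 CPM in intestine GFP against 21 to 61.6 in intestine DsRedx. The part of the marker differences in the results below was not tested.

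The 83 genes held between 1.79% and 6.23% of a library's counts. In gill DsRedx the 3 libraries gave 6.23%, 2.15% and 2.09%. In gill GFP they gave 2.14%, 1.98% and 1.79%. In intestine DsRedx they gave 3.14%, 2.33% and 3.04%. In intestine GFP they gave 2.47%, 2.09% and 2.54%. The values of every GFP group overlapped those of the DsRedx group of its tissue, and replicate 1 of gill DsRedx stood far above all other libraries. The 95% Wilson interval of a share was at most 0.039 percentage points wide, which covers counting error only, so the spread between libraries was far wider than the counting error.

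**Figure D1:**
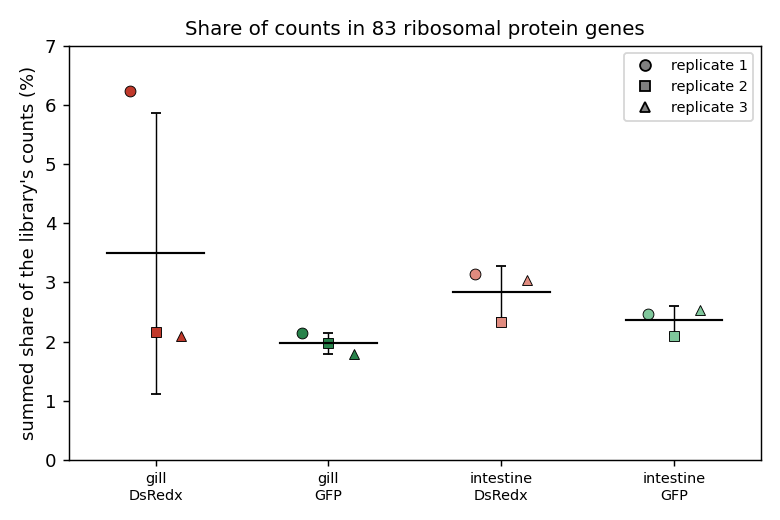
Percent of each library's counts that fell in the 83 ribosomal protein genes, by group. Symbols are replicates, horizontal lines are group means and bars are 1 SD (n = 3). Replicate 1 of gill DsRedx lies at 6.23%, and the other 11 libraries lie between 1.79% and 3.14%.

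The mean share was 3.49% ± 2.37 (SD, n = 3) in gill DsRedx and 1.97% ± 0.178 in gill GFP, a GFP to DsRedx ratio of 0.564 (exact permutation test, two-sided, p = 0.2, adjusted over 6 comparisons 0.4). In intestine it was 2.84% ± 0.442 in DsRedx and 2.37% ± 0.242 in GFP, a ratio of 0.834 (exact permutation p = 0.3, adjusted 0.45). With 3 libraries against 3, this test cannot give a p below 0.1. Averaged over the tissues the GFP share was 0.997 percentage points lower, a ratio of 0.686, with an exact permutation p of 0.065 (0.39 adjusted) where 0.005 was the smallest possible. The reporter difference was not shown to differ between the tissues (exact permutation p = 0.825, adjusted 0.99).

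The gill value rested on that 1 library. Without replicate 1 of gill DsRedx the gill ratio was 0.928 in place of 0.564, and the ratio averaged over tissues was 0.88 in place of 0.686 (exact permutation p = 0.3 and 0.1). Between the DsRedx groups the gill to intestine ratio turned from 1.23 to 0.749 (exact permutation p = 1 and 0.2). Between the GFP groups, which do not use that library, gill stood at 0.833 of intestine (exact permutation p = 0.2, adjusted 0.4). The library differed from the other 2 of its group also in its B cell markers, summing to 27.7 CPM against 0.388 and 0.353, and in its T and NK cell markers, at 1.02 CPM against 28.1 and 223. Its neutrophil markers summed to 2.54 CPM against 48.5 and 232, and its epithelial markers to 440 CPM against 1705 and 1471. Named genes of the mitochondrial genome held 1.38% of its counts against 3.52% in each of the other 2, and 0.689% to 4.09% over all libraries. An abundant unnamed gene, ENSDARG00000080337, was not part of that sum. It held 13.85% of the counts of replicate 1 against 14.85% and 11.01%, and 5.309% to 17.39% over all libraries. With this gene added to the sum, replicate 1 lay between the other 2. The part of these differences in its ribosomal protein share was not tested.

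The small subunit genes made up 39.3% to 41.8% of the ribosomal protein counts in the 9 libraries outside gill DsRedx. In gill DsRedx they made up 38.6%, 42.7% and 33.6%. The balance of the subunits was thus close to constant in 3 groups and spread more widely in gill DsRedx, a difference in spread that was not tested.

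Levels per gene length were compared as TPM (counts per gene length, scaled to a common total). By mean TPM over the 12 libraries the order began with rps20 (3415), a protein of the small subunit head, RPL19 (2265), rplp2 (2262), a P stalk protein, RPS2 (2129), of the small subunit, and RPL6 (1712). It ended with RPL9 (7.03), rps11l (6.76) and RPL26 (0.426). Whether these low values depend on how reads were assigned to genes was not tested. RPL26 reached 18 counts at most, and 1 more member had no count in any library, where the limit that a count of 0 allows is 0.0303 CPM over all libraries. Those 2 members failed the filter on low counts, so 81 were tested. The 6 members RPL3, RPL19, rps20, RPL6, RPS2 and rplp2 were among the 10 highest in all 4 groups and held 29.6% of the ribosomal protein TPM.

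The reporter comparison asks how metaphocytes differ from the macrophages sorted from the same tissue. In gill 80 of 81 tested members had a lower fitted level in GFP than in DsRedx, with a median log2 fold change of −1.31 where the median of all 10666 tested genes was at 0. In intestine 77 of 81 were lower, with a median of −0.64 against 0.08 for all genes. Without replicate 1 of gill DsRedx 69 of 81 were lower in gill. On raw totals 80 were lower in gill and 66 in intestine, and on log2(TPM + 1) 70 and 63. The members share the same libraries, so they are not independent. None of the members passed the test in either tissue (edgeR quasi-likelihood test, p adjusted by Benjamini-Hochberg over every tested gene, threshold 0.05), while 4.59% of all tested genes were called in gill and 4.12% in intestine. At an unadjusted p under 0.05 there were 27 members in gill and 0 in intestine, beside 29.9% and 24.1% of all tested genes. DESeq2 called 13 in gill and 0 in intestine, beside 24.4% and 17.6% of all tested genes. Of the 13, 12 were lower in GFP and 1, rps19bp1, was higher.

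Averaged over both tissues, 80 of 81 members had a lower fitted level in GFP, with a median log2 fold change of −0.998 against 0.27 for all tested genes. RPL38, RPLP1, rps20 and RPL13 fell by the edgeR test, and no member rose. These 4 of 81 stand beside 7.3% of all tested genes called lower and 17.9% called in either direction, a share near or below the background. DESeq2 called 21 members, 20 lower and 1 higher in GFP, and 26.1% of all tested genes. The median standard error of a member's averaged log2 fold change was 0.52.

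**Figure D2:**
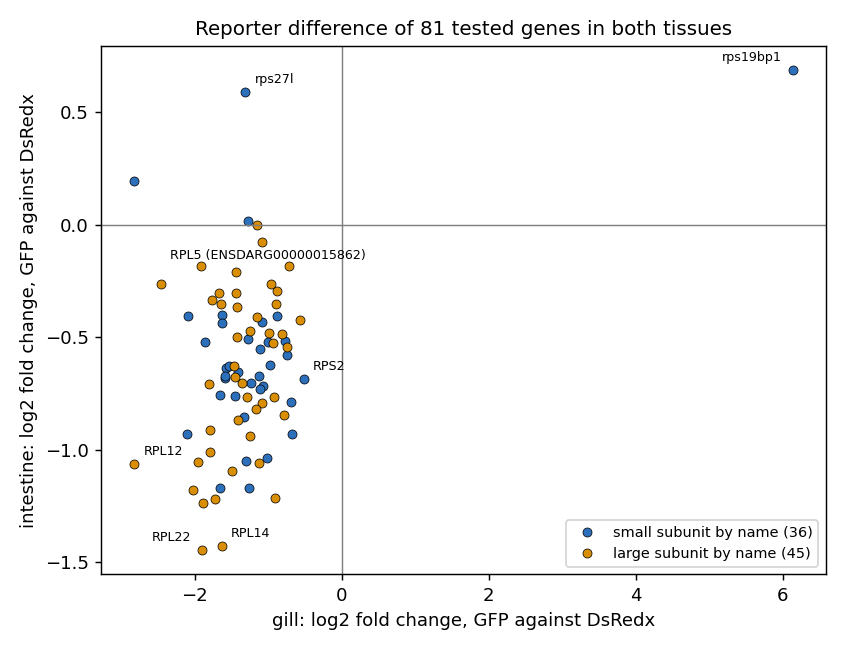
Log2 fold change of GFP against DsRedx for the 81 tested members, gill on the horizontal axis and intestine on the vertical axis, colored by the subunit of the name. In both tissues 77 members lie below 0, and rps19bp1 is the 1 member above 0 in both.

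A change of scaling moves the fold changes of all genes by nearly the same amount. It can thus move the size of that shift but hardly its distance from the other genes. The TMM factors were 0.982 to 1.25 in the GFP libraries and 0.751 to 0.952 in the DsRedx libraries, so TMM scaling lowers GFP levels relative to raw totals. On raw totals the median of the members, averaged over tissues, was −0.62 and that of all genes 0.65. With TMM the members stood −1.26 from the median of all genes. With RLE scaling, upper-quartile scaling, raw totals and TMM without the members they stood −1.31, −1.30, −1.28 and −1.27 from it. These distances were bound to lie close together. Fits other than a rescaling gave −0.97 with the number of genes with a count as a covariate and −1.51 with a replicate block. On log2(TPM + 1) and log2(TPM + 0.1), limma gave −1.12 and −1.52. With TMM and without replicate 1 of gill DsRedx the distance was −1.42 averaged over tissues, −0.97 in gill and −0.78 in intestine, where all libraries gave −1.31 and −0.72. In that fit the averaged median of the members was −0.78 and that of all genes 0.64, where all libraries gave −0.998 and 0.27. Leaving out a library also changed the set of tested genes, here 12438 in place of 10666. The intestine distance also moved with its own libraries, to −1.29 without replicate 2 of intestine DsRedx and to −0.50 without replicate 2 of intestine GFP. The intestine medians of members and all genes were −0.75 and 0.55 in the former, −0.50 and 0 in the latter, and −0.64 and 0.08 with all libraries.

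**Figure D3:**
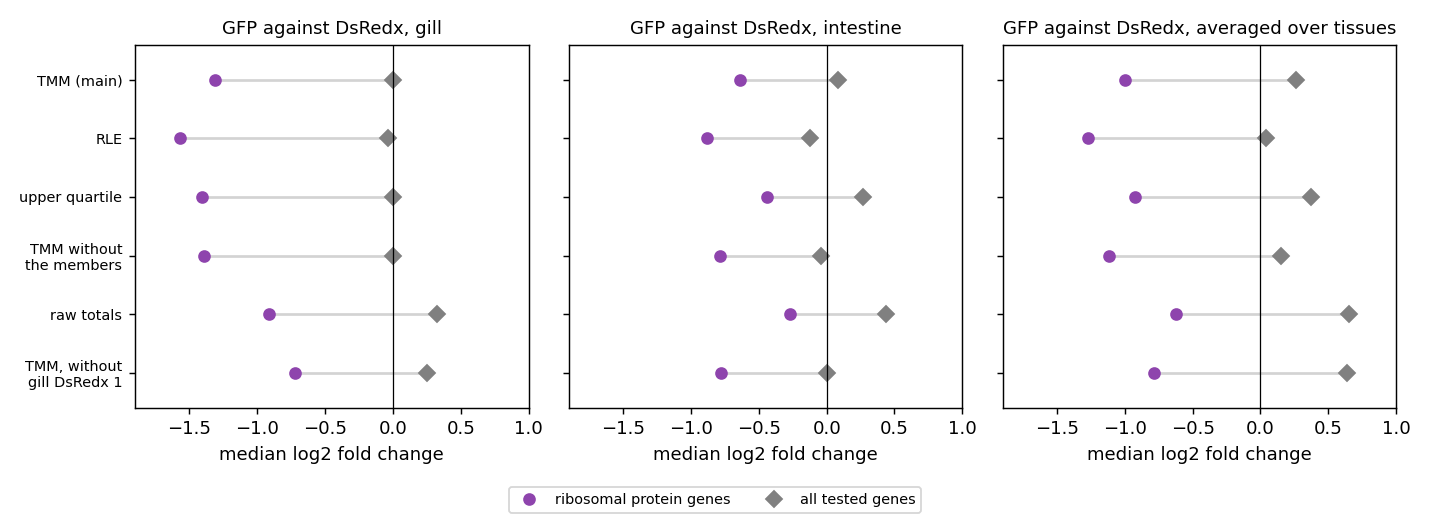
Median log2 fold change of GFP against DsRedx over the ribosomal protein genes (circles) and over all tested genes (diamonds) under 5 scalings and without replicate 1 of gill DsRedx. The circles lie left of 0 and of the diamonds in all 18 cases, and without that library the gill median moves from −1.31 to −0.72.

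The 3 TMM-scaled CPM values of each group were also compared without a fitted model. Those of GFP all lay below those of DsRedx for 28 members in gill and for 29 in intestine. Among all tested genes this held for 7.98% in gill and 10.4% in intestine. The opposite order held for 1 member in gill, rps19bp1, and for 0 in intestine, beside 12.1% and 19.4% of all genes. These counts depend on the scaling. RPL13, RPLP1 and rplp2, counted as lower in both tissues, overlap in both on TPM. Large subunit members made up 19 of the 28 and 18 of the 29. Their median log2 fold changes were −1.42 for the large and −1.28 for the small subunit in gill, and −0.63 and −0.65 in intestine, so the subunit medians lay close together.

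RPL38 is a small protein of the large subunit that in mouse is needed for the translation of certain Hox messages. Its CPM values were 757, 278 and 247 in gill DsRedx and 119, 141 and 129 in gill GFP. In intestine they were 323, 296 and 398 in DsRedx and 178, 109 and 150 in GFP. All 6 GFP values lay below all 6 DsRedx values, and the averaged level was 2.77-fold lower in GFP (log2 −1.47 ± 0.49 SE, edgeR adjusted p = 0.0427).

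RPLP1 is an acidic protein of the P stalk. It had 2771, 618 and 602 CPM in gill DsRedx against 601, 332 and 219 in gill GFP. In intestine it had 912, 556 and 1112 CPM in DsRedx against 493, 270 and 516 in GFP. On TMM-scaled CPM the groups did not overlap in either tissue, although the highest gill GFP value came within 1 CPM of the lowest gill DsRedx value. On TPM they overlapped in both tissues, with 3540.6, 686.8 and 765.1 in gill DsRedx against 1159.6, 543.6 and 325.1 in gill GFP. The averaged level was 2.64-fold lower in GFP (log2 −1.40 ± 0.46 SE, edgeR adjusted p = 0.0407).

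The member with the highest TPM, rps20, had 2874, 1117 and 572 CPM in gill DsRedx and 506, 737 and 664 in gill GFP, which overlap. In intestine it had 1517, 929 and 1723 CPM in DsRedx and 590, 493 and 766 in GFP, which do not. Its averaged level was 2.32-fold lower in GFP (log2 −1.22 ± 0.40 SE, edgeR adjusted p = 0.0406).

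RPL13, a protein of the large subunit, had 1199, 183 and 359 CPM in gill DsRedx, and in gill GFP its 3 values lay close together at 156, 156 and 160. In intestine it had 475, 237 and 472 CPM in DsRedx and 181, 101 and 220 in GFP. The averaged level was 2.95-fold lower in GFP (log2 −1.56 ± 0.52 SE, edgeR adjusted p = 0.0425). On TMM-scaled CPM the groups did not overlap in either tissue. On TPM they overlapped in both, with 937.3, 124.5 and 279.3 in gill DsRedx against 184.0, 156.6 and 145.2 in gill GFP.

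All 4 calls lay close to the threshold. In 12 fits that each left out 1 library, RPLP1 stayed called in 4, rps20 in 3, and RPL38 and RPL13 in 2 each. None of the 4 stayed called without replicate 1 of gill DsRedx, or without replicate 2 or 3 of gill GFP, replicate 1 or 3 of intestine DsRedx, or any library of intestine GFP. The adjusted p over those fits ranged from 0.0382 to 0.123 for RPL38, from 0.0187 to 0.141 for RPLP1, from 0.0132 to 0.119 for rps20 and from 0.0187 to 0.153 for RPL13.

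**Figure D4:**
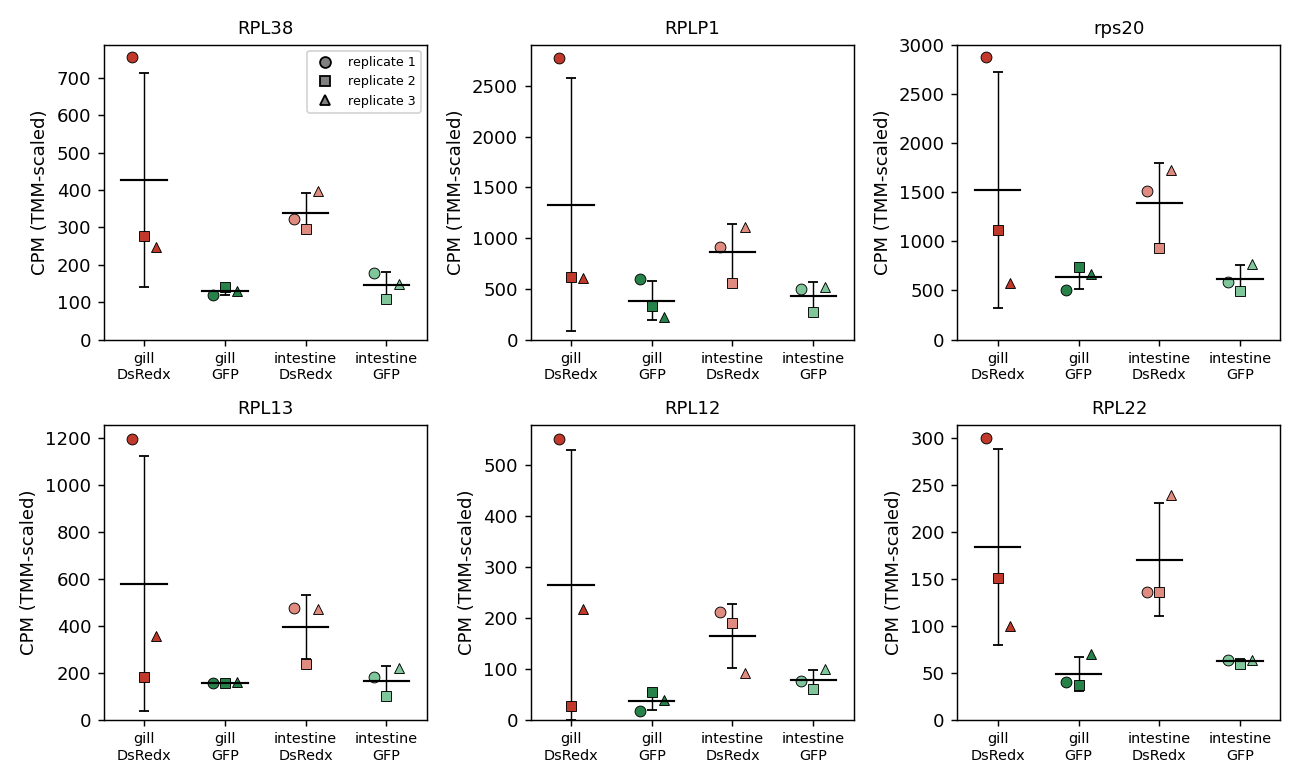
CPM (TMM-scaled) in every library for the 4 called members RPL38, RPLP1, rps20 and RPL13 and for RPL12 and RPL22, the 2 members with the lowest averaged fold changes, which were not called. Lines are means and bars 1 SD (n = 3), and the lower bar of RPL12 in gill DsRedx is clipped at 0. Replicate 1 of gill DsRedx is the highest value in each panel.

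Of the other stalk members, RPLP0, the scaffold of the stalk, had a mean of 523 ± 278 CPM (SD, n = 3) in gill DsRedx and 247 ± 60.4 in gill GFP. Its means were 593 ± 205 and 342 ± 27.5 CPM in intestine. For rplp2 the means were 853 ± 290 and 393 ± 181 CPM in gill and 611 ± 258 and 293 ± 48.1 in intestine. Its groups did not overlap in either tissue on TMM-scaled CPM. On TPM they overlapped in both, with 4356.9, 2768.8 and 2151.9 in gill DsRedx against 3064.9, 2205.9 and 830.6 in gill GFP. RPL12, which sits at the stalk base, had the lowest averaged log2 fold change of the members, −1.94 ± 0.70 SE (edgeR adjusted p = 0.0579). Its lowest gill DsRedx value fell inside the gill GFP range of 17.3 to 55.3 CPM, while the other gill DsRedx values were 551 and 216.

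RPL22, an RNA-binding protein of the large subunit known in mouse for its part in lymphocyte development, had 301, 151 and 100 CPM in gill DsRedx and 40.7, 36.9 and 69.6 in gill GFP. In intestine it had 136, 136 and 240 CPM in DsRedx and 63.8, 60 and 63.9 in GFP. The groups were apart in both tissues, yet the averaged log2 fold change of −1.68 ± 0.62 SE was not called (edgeR adjusted p = 0.0667). RPL14, of the large subunit as well, had intestine values of 235, 81.6 and 158 CPM in DsRedx and 47, 51.8 and 77.1 in GFP, an averaged log2 fold change of −1.53 ± 0.64 SE (edgeR adjusted p = 0.1). RPL29 gave −1.60 ± 0.58 SE (edgeR adjusted p = 0.0595).

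RPL11, which with RPL5 and a small ribosomal RNA forms a particle that in mammals also binds the p53 regulator Mdm2, had an averaged log2 fold change of −0.74 ± 0.50 SE (edgeR adjusted p = 0.332). For rps27a, made as a fusion with ubiquitin, it was −0.90 ± 0.59 SE (edgeR adjusted p = 0.313). Its gill DsRedx values ran from 40.4 to 871 CPM, while gill GFP lay at 154, 161 and 174. Of the structural members, RPL4, of the large subunit, lay closest to no difference, with an averaged log2 fold change of −0.50 ± 0.39 SE. RPS2 in turn lay closest in gill, at −0.52 ± 0.49 SE, with 3110, 2087 and 1305 CPM in DsRedx and 2334, 786 and 1424 in GFP, which overlap. The abundant RPL19 overlapped as well, with 3438, 989 and 880 CPM in gill DsRedx and 1149, 728 and 1138 in gill GFP.

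To find members that depart from the common shift, each library was scaled to its own summed ribosomal protein counts, which sets the shift of the set near 0. The median log2 fold change of all tested genes is then 0.90 in gill, 0.68 in intestine and 1.05 averaged over tissues. The shares of all genes on this scale carry that shift, so they are not a like background for the members. No member was called in any of the 6 comparisons by edgeR on this scale, beside 5.96% of all tested genes in gill, 3.84% in intestine and 21.6% averaged over tissues. Between tissues the shares of all genes were 1.95% for GFP cells and 0.816% for DsRedx cells, and 0.0375% for the difference of the reporter effects. At an unadjusted p under 0.05 there was 1 member in gill, 0 in intestine, 1 averaged over tissues and 1 for the difference between tissues, each time rps19bp1, where 32.1%, 25.2%, 34% and 14.3% of all tested genes were under it. DESeq2 called 1 member in gill, beside 27.8% of all genes, and 1 averaged over tissues, beside 31.1%. The quartiles of the members lay at −0.40 and 0.19 on the log2 scale in gill and at −0.25 and 0.19 in intestine.

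The member at issue was rps19bp1, which encodes a binding partner of RPS19 and not a part of the ribosome. Its counts were 8, 7 and 9 in gill DsRedx and 68, 515 and 1308 in gill GFP. In intestine they were 2, 357 and 0 in DsRedx and 119, 44 and 849 in GFP. The gill groups were far apart, and in intestine 1 DsRedx library lay inside the GFP range. Relative to the summed members its log2 fold change was 7.09 ± 2.35 SE in gill (edgeR adjusted p = 0.072) and 3.96 ± 1.43 SE averaged over tissues (edgeR adjusted p = 0.0511). DESeq2 called it in both, and without replicate 2 of intestine DsRedx edgeR called it in both, with adjusted p values over the 12 fits from 0.0365 to 0.158 in gill and from 0.00478 to 0.146 averaged. The averaged log2 fold change was 7.55 without replicate 2 of intestine DsRedx, the library with 357 counts, and 3.14 to 4.24 without any other single library.

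Measured against the median member of its own library, 6 members lay lower in all 3 gill GFP libraries than in all 3 gill DsRedx libraries, among them RPL38, RPS24, RPL35A and the RPL5 copy ENSDARG00000015862. Of all tested genes 3.55% did so, and the shares of all genes on this scale too carry their shift against the members. RPS21 and rps19bp1 lay higher, beside 27% of all genes. In intestine the lower ones were 8, RPL38, RPS23, rps20, RPL39, RPS12, RPL22, RPL13 and the RPL5 copy ENSDARG00000020197, beside 6.78% of all genes, and rpl7a alone lay higher, beside 26.7%. RPL38 was on the lower side in both tissues. On this scale it stood at 0.19, 0.23 and 0.19 log2 units in gill DsRedx and at −0.12, −0.20 and −0.09 in gill GFP. In intestine the values were −0.05, 0.32 and 0.33 in DsRedx and −0.16, −0.45 and −0.58 in GFP.

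Zebrafish carry duplicated copies of several of these genes, and 8 members share a symbol with another. How reads shared by near-identical copies were counted is not stated in the labels or files, so the level of a single copy is uncertain. The mean balance of the 2 copies of RPL5 differed between the groups of these libraries, though no difference passed the adjustment over the pairs. The copy ENSDARG00000020197 held 28.8%, 33.2% and 38.6% of the RPL5 TPM in gill DsRedx and 54.8%, 61.3% and 59.5% in gill GFP. In intestine it held 64%, 51.1% and 45.4% in DsRedx and 35.5%, 46.1% and 34% in GFP. GFP was thus above DsRedx in gill without overlap, and in intestine the GFP minus DsRedx difference of the means was −15 percentage points, with 1 DsRedx value inside the GFP range.

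The pair was singled out after its values were seen. The difference of the reporter effect between tissues was then tested for all 8 pairs with counts in both copies. It was 39.95 percentage points for RPL5 (exact permutation p = 0.01, adjusted over the 8 pairs 0.06). Within gill the GFP minus DsRedx difference was 25 percentage points, at the smallest exact permutation p of 0.1 (adjusted over the 8 pairs 0.4). As a gene, the RPL5 copy ENSDARG00000015862 did not pass edgeR, with a gill log2 fold change of −2.46 ± 0.77 SE (edgeR adjusted p = 0.0731).

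**Figure D5:**
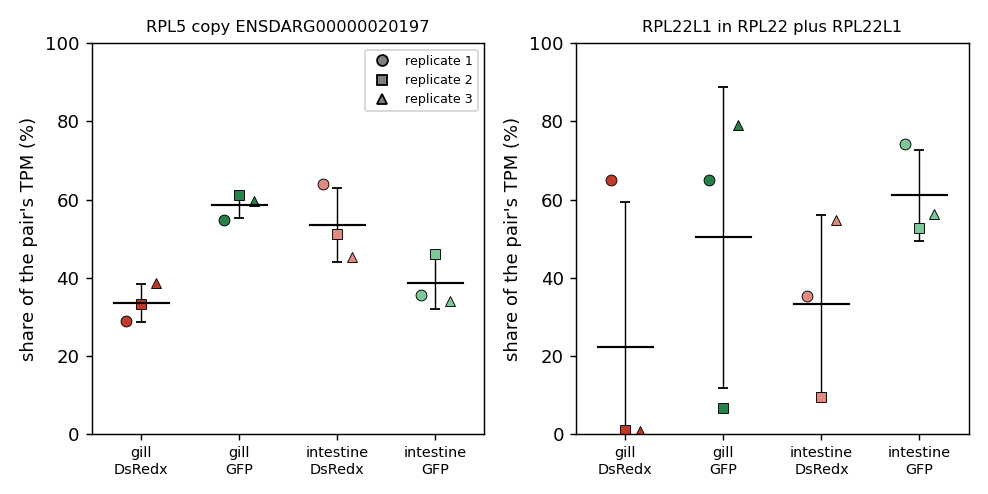
Share of a pair's TPM held by the RPL5 copy ENSDARG00000020197 and by RPL22L1 in its pair with RPL22. Symbols are replicates, lines are means and bars 1 SD (n = 3), clipped at 0 for RPL22L1 in gill DsRedx. In gill the RPL5 share is above 54% in all GFP libraries and below 39% in all DsRedx libraries, and RPL22L1 ranges from 0.637% to 79.1%.

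None of the 8 pairs gave an adjusted p under the threshold. The RPS26 copy ENSDARG00000037071 held 36.7%, 86.6% and 81.5% of its pair in gill DsRedx and 45.2%, 51.6% and 33.4% in gill GFP. The copy rps27.2 held 1.06% to 22.9% of its pair with rps27.1 over the 12 libraries.

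RPL22L1, the relative of RPL22 that can take its place in the ribosome, had the widest spread between replicates in both gill groups. Its counts were 629, 2 and 1 in gill DsRedx and 154, 4 and 365 in gill GFP. They were 116, 23 and 506 in intestine DsRedx and 458, 150 and 242 in intestine GFP. RPL7L1, a relative of RPL7 that works in ribosome assembly, gave 455, 3 and 1 counts in gill DsRedx, so both were near the counting limit in the same 2 libraries. The third relative, rps27l, which in mammals is a p53 target, had 1181, 9 and 708 counts there. Among those 3 libraries the level against the median member had a SD over 1 log2 unit for 18 of 81 members, against 6 in gill GFP, 5 of 80 in intestine DsRedx and 2 in intestine GFP. The member left out of the 80 was rps19bp1, which had a count of 0 in 1 intestine DsRedx library.

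The relative levels of the 76 tested structural members were most alike among intestine GFP libraries, with Pearson correlations across genes of 0.949 to 0.953. Among gill GFP libraries they were 0.864 to 0.9 and among intestine DsRedx libraries 0.807 to 0.898. Among gill DsRedx libraries they were 0.632 to 0.725, and between libraries of different groups 0.699 to 0.932. These correlations are across genes, which are not independent replicates, and they describe the libraries only. Gill DsRedx libraries were thus less alike in this measure than libraries of any other group.

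Between tissues no member was called by edgeR or DESeq2 among GFP cells or among DsRedx cells, and none had an unadjusted edgeR p under 0.05, beside 15.8% and 21.1% of all tested genes. Of all tested genes edgeR called 2.03% among GFP cells and 0.759% among DsRedx cells, and DESeq2 called 10.4% and 15.1%. The members' median log2 fold change of gill against intestine was −0.31 in GFP cells, where that of all genes was −0.22. Without replicate 3 of intestine GFP it turned to 0.07, with 35 of 81 members below 0 in place of 61, and with RLE scaling it was −0.05. In DsRedx cells it was 0.39 against −0.16 for all genes, and −0.34 against −0.55 without replicate 1 of gill DsRedx. The 3 values lay lower in gill than in intestine GFP cells for 15 members, beside 18.5% of all genes, among them RPS29, RPS7, RPS24 and rpl32, and higher for 1 member, beside 8.69%. In DsRedx cells 0 members lay lower, beside 12.2% of all genes. Another 4 lay higher there (RPL31, RPL36, rps3 and the RPL5 copy ENSDARG00000015862), beside 6.74%. As shares of the 81 members, all these counts were near or below those of all genes, so they do not set the members apart.

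The difference of the reporter effect between tissues was not called for any member, beside 0.15% of all tested genes. At an unadjusted p under 0.05 there were 2 members, beside 14.1% of all tested genes, and DESeq2 called 0, beside 7.76%. The median of the members was −0.65, against −0.07 for all tested genes. Without replicate 1 of gill DsRedx the members' median turned to 0.20 and that of all genes to 0.36.

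A list of 7 partners of the ribosome was set beside the members. FAU encodes a ribosomal protein fused to a ubiquitin-like protein, RACK1 sits on the small subunit, naca and BTF3 form the complex at the exit of the new chain, EIF6 keeps the subunits apart, and TPT1 is a growth-linked protein whose message is regulated like theirs. The 7 all had lower fitted levels in gill GFP, with a median log2 fold change of −1.21, and 5 of 7 in intestine, with a median of −0.59. None passed the edgeR test in the 6 comparisons. FAU had 472, 156 and 141 TMM-scaled CPM in gill DsRedx and 70.8, 134 and 59.4 in gill GFP, without overlap on this scale. TPT1 had a higher fitted level in intestine GFP (log2 0.73, edgeR adjusted p = 0.544). The 2 close spellings were not called either: RPSA2 gave an averaged log2 fold change of −0.52 (edgeR adjusted p = 0.363) and rplp2l gave −1.17 (edgeR adjusted p = 0.0985).

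Other genes of protein synthesis were split in direction. In the averaged comparison 9 of 13 elongation and termination factors, 24 of 43 initiation factors and 25 of 60 biogenesis factors had lower fitted levels in GFP. Of the 13 tested elongation and termination factors 1 fell, beside 7.3% of all tested genes called lower. It was eef2b, which moves the ribosome along the message. It had 2428, 777 and 1656 CPM in gill DsRedx, 731, 283 and 904 in gill GFP, 960, 1008 and 1304 in intestine DsRedx and 752, 552 and 360 in intestine GFP. The gill values overlap and the intestine values do not, and the averaged level was 2.23-fold lower in GFP (edgeR adjusted p = 0.0491). The list's median log2 fold change was −0.48, against 0.27 for all tested genes. Of 43 tested initiation factors none was called in that comparison (median −0.27), beside 17.9% of all tested genes. In gill 1 of the 43, EIF3I, rose, beside 4.59% of all tested genes called there. It went from 18, 13 and 53 counts in DsRedx to 401, 513 and 810 in GFP (edgeR adjusted p = 0.0491).

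Ribosome biogenesis factors, which process ribosomal RNA and assemble subunits, had a median of 0.32 over 60 tested genes in the averaged comparison. Of these, 7 rose (FTSJ3, IMP4, NOL6, RIOK2, UTP4, WDR46 and utp18) and 1 fell, NOP58. Not all rose evenly: NOL6 had 56, 0 and 0 counts in intestine GFP. In gill GFP utp18 had 158, 1 and 0 counts, RIOK2 had 9, 170 and 1, and FTSJ3 had 4, 93 and 806. UTP4, of the small subunit processing machinery, had 44, 4 and 1 counts in gill DsRedx and 131, 253 and 221 in gill GFP. In intestine it had 5, 5 and 5 counts in DsRedx and 449, 366 and 790 in GFP, and its groups did not overlap in either tissue. Its averaged level was 24.4-fold higher in GFP (edgeR adjusted p = 0.0296). NOP58, a core protein of small nucleolar particles, had 1107, 1314 and 6 counts in gill DsRedx and 3, 3 and 5 in gill GFP (edgeR adjusted p = 0.0318 in gill). In intestine it had 967, 65 and 6 counts in DsRedx and 700, 844 and 468 in GFP. These overlap, and the intestine mean was higher in GFP, 58.02 against 47.08 CPM. Of 72 tested mitochondrial ribosomal proteins 1 rose, MRPL22, and 1 fell, MRPL2, with a median of 0.42. MRPL22 had only 0, 3 and 6 counts in gill GFP and 0 in all gill DsRedx libraries. In intestine it had 0, 1 and 2 counts in DsRedx and 75, 33 and 204 in GFP. MRPL2 overlapped in both tissues, with 597, 1054 and 5 counts in gill DsRedx against 2, 5 and 11 in gill GFP. Of 6 tested RNA polymerase I genes none was called. The 11 calls over these lists in the averaged comparison became 1 to 8 when single libraries were left out. There were 8 without replicate 3 of gill DsRedx and 1 without replicate 3 of intestine GFP. Of all tested genes 10.5% were called higher and 7.3% lower. Beside these shares stand the 7 and 1 of biogenesis and the 1 and 1 of mitochondrial ribosomal proteins.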

How the data were processed

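Whole-number counts per Ensembl gene and TPM values were deposited by the authors as 2 tables of 32520 genes and 12 libraries. Per the labels' protocols, 30 to 50 cells were sorted into lysis buffer, amplified with SMART-seq2, then read in pairs of 150 bases. Per the submitters' processing notes, STAR, featureCounts and the danRer11 build were used, with versions, strand setting and treatment of shared reads not given in the sources used here. SMART-seq2 counts carry no molecular identifiers, so PCR duplicates count as reads. Symbols came from the gene name table supplied, which named 29201 genes.

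Genes kept by filterByExpr (10666) were tested with the quasi-likelihood test of edgeR 4.0.16 on TMM-scaled counts, with 1 mean per group, 8 residual degrees of freedom and p-values adjusted by Benjamini-Hochberg over all tested genes. CPM are TMM-scaled unless raw totals are named. Departure from the common shift was tested the same way with the summed member counts as library size. Both fits were tested on simulated data with less spread than these libraries and changes larger than the members' median shift. That check therefore does not show how the fits handle shifts of the members' size. Shares were compared by two-sided exact permutation tests, stratified by tissue for the averaged comparison. Alternatives used DESeq2 1.42.0, limma 3.58.1 on log2(TPM + 1) or log2(TPM + 0.1), RLE, upper-quartile and unscaled totals, other filters, a robust fit, a covariate, a replicate block and leaving out each library.

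The members, gene lists and markers were chosen with earlier results of these data known. Members described in full were those called, the 5 most abundant, the extremes of each subunit, paralog pairs, the P stalk, RPL5, RPL11 and rps27a, and the 3 highest and lowest fold changes of each reporter comparison. Raw totals, the close spellings and the tests of copy shares were added after seeing the data. Some single members and 1 partner are not reported here by name; they stay in the sums, counts and medians.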

Additional observations from a re-analysis of the deposited data

Results flagged for a closer look

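The reporter effect on the share of the RPL5 copy ENSDARG00000020197 in its pair differed between the tissues by 39.95 percentage points, 25 in gill against −15 in intestine (exact permutation p = 0.01, adjusted over 8 pairs 0.06). In 12 repeats that each left out 1 library the difference stayed between 34.7 and 44 percentage points, with exact permutation p values from 0.005, the smallest possible, to 0.015. The repeats reuse the libraries in which the pair was singled out after its values were seen, so they are no independent support. Their p values were not adjusted over the pairs. With all libraries the difference did not pass the adjustment over the 8 pairs. Whether reads of near-identical copies were assigned alike in all libraries was not tested.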

How the results depend on the processing

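The averaged GFP to DsRedx ratio of the share, 0.686, had an exact permutation p of 0.065 (0.39 adjusted over the comparisons). It became 0.656 without the named mitochondrial genes and the unnamed gene ENSDARG00000080337 in the total, 0.677 on TPM and 0.529 for the TMM-scaled median member. These alternatives passed the exact permutation test before adjustment over the comparisons, and adjusted values are not reported for them. Without replicate 1 of gill DsRedx the ratio of 0.686 became 0.88 (exact permutation p = 0.1, unadjusted). Leaving out single libraries gave 0.626 to 0.88 averaged, 0.47 to 0.928 in gill, 0.749 to 1.48 for DsRedx cells between tissues and 0.563 to 1.11 for the difference of the reporter effects. The averaged count of called members, 4, became 21 with DESeq2, 18 with RLE scaling, 13 with at least 10 CPM in 3 libraries, 9 with TMM without the members, 2 with no filter and 0 with upper-quartile scaling, raw totals or the number of detected genes as covariate. limma gave 1 with a pseudocount of 1 and 2 with 0.1. In GFP 1 of the 21 with DESeq2 and 1 of the 2 with limma were higher. The gill count of 0 became 13 with DESeq2 (12 lower and 1 higher), and 1 with the strict filter and with both limma fits. Without single libraries the counts were 0 to 9 averaged and 0 to 1 in gill. The count of departing members, 0, became 1 in gill and averaged with no filter and with DESeq2, 1 averaged with a robust fit and with RLE or TMM over the members, 1 in gill with only its 2 groups, and 0 to 1 without single libraries. The list calls ranged from 1 to 8 averaged (11 with all libraries), 0 to 2 in gill (3) and 0 to 1 for GFP cells between tissues (0) without single libraries.

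Same-numbered deviations correlated at −0.034 to 0.042 over all tested genes and at −0.43 to 0.41 over the members. Differently numbered ones gave −0.037 to 0.047 and −0.59 to 0.60. No pairing by replicate number was thus seen, but in libraries this variable the correlations cannot exclude it. With the replicate block, the averaged count of called members was 1, and the list calls were 1 in gill and 4 averaged. No result reversed its direction past the threshold under the alternatives run. Values of single members kept their side of the test in 4312 comparisons, and 62 became weaker, 47 stronger and 184 moved. With 3 libraries a group and a common biological coefficient of variation of 1.42, shifts of the members' size seldom passed, and a p above the threshold does not show that levels were alike.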
